A study of Rattus norvegicus with 9 samples.

Results

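Expression of 10 genes of the corticosteroid system was examined in a resistance artery of the rat: the receptors Nr3c1 and Nr3c2, the enzymes Hsd11b1 and Hsd11b2, and the hormone-responsive genes Tsc22d3, Sgk1, Klf9, Ddit4, Cdkn1c and Gas5. They were chosen by gene symbol, and every probeset of the RAE230A array that carries one of these symbols was taken, which gave 13 probesets of 15923 on the array (15866 without the manufacturer's controls). A probeset was tested when its third-highest signal over the 9 arrays was at least 44. This held for 9125 probesets in all and for 10 of the 13, 1 for each gene.

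Glucocorticoids leave the adrenal cortex when adrenocorticotropic hormone (ACTH) stimulates it, and in the rat the main one is corticosterone. The hormone binds the glucocorticoid receptor or the mineralocorticoid receptor inside the cell, and the occupied receptor enters the nucleus and switches genes on or off. How much active hormone reaches the receptors in an artery also depends on a pair of 11β-hydroxysteroid dehydrogenases, since the type 1 enzyme regenerates corticosterone and the type 2 enzyme inactivates it.

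Each group had 3 arrays, and every array held RNA pooled from 2 to 3 male rats aged 16 weeks. The ACTH arrays came from Wistar-Kyoto (WKY) rats given ACTH under the skin at 0.1 mg/kg/day, as the labels state it, for 4 weeks from week 12, the SHR arrays from untreated spontaneously hypertensive rats, and the WKY arrays from untreated Wistar-Kyoto rats. The dose in the methods is larger than that in the labels, and no group given vehicle alone is among the arrays used here. SHR and WKY are different strains, so a strain difference and hypertension cannot be told apart. The ACTH and SHR arrays differ in strain and in ACTH treatment at once, so strain and treatment cannot be told apart in that comparison. All 3 groups contributed a primary branch of the saphenous artery.

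The deposited MAS5 signals had a median of 52.3 to 58.1 per array. Log2 signals of arrays of 1 group correlated at 0.95 to 0.98 (Pearson, across probesets), and those of arrays of different groups at 0.92 to 0.96. All 7 smooth muscle markers and all 5 endothelial markers on the array passed the filter. The signal ratio of the 3-prime to the 5-prime GAPDH control probesets, which grows as RNA shortens, was 4.05 ± 0.44 in ACTH, 4.17 ± 0.86 in SHR and 5.41 ± 0.54 in WKY (SD, n = 3 each). The ratios of ACTH (3.67 to 4.52) and WKY (4.91 to 5.99) did not overlap. A fit with this ratio as a covariate therefore cannot separate RNA length from group in ACTH against WKY. No scan day held both ACTH and WKY arrays, so scan day and group cannot be told apart in that comparison. The 3 ACTH arrays shared a day with SHR replicate 3, and SHR replicates 1 and 2 shared one with WKY replicate 2. WKY replicates 1 and 3 were each alone on their day. In a fit with scan day as a fixed block, WKY replicate 2 is therefore the only WKY array that bears on the changes. That fit links ACTH to WKY only through SHR arrays, and sets ACTH against SHR replicate 3 alone. Signals are from whole arteries, in which fewer cells of a type and less RNA per cell cannot be told apart.

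Neither receptor passed the test in any comparison. The glucocorticoid receptor Nr3c1 gave 377, 347 and 391 on the ACTH arrays, 329, 309 and 360 on the SHR arrays and 386, 371 and 412 on the WKY arrays. The ACTH and WKY ranges overlapped, and all 3 SHR arrays lay below all 3 WKY arrays. The log2 change was -0.07 ± 0.13 in ACTH against WKY (SE; 95% interval -0.36 to 0.22) and -0.23 ± 0.13 in SHR against WKY (-0.52 to 0.06), and neither passed the test (adjusted p = 0.889 and 0.407). A further Nr3c1 probeset stayed between 0.436 and 16.4 on all arrays and was not tested.

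The mineralocorticoid receptor Nr3c2 gave 203, 181 and 194 in ACTH, 227, 182 and 199 in SHR and 291, 184 and 202 in WKY. Only WKY replicate 1 stood above the other 8 arrays, and the groups overlapped in every comparison. Its changes were -0.20 ± 0.18 in ACTH and -0.14 ± 0.18 in SHR against WKY (95% intervals -0.61 to 0.20 and -0.54 to 0.27). Without WKY replicate 1 the SHR change had the opposite sign, 0.062.

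Of the enzymes, Hsd11b1 had higher signals in both hypertensive groups than in WKY. The ACTH arrays gave 205, 151 and 145, the SHR arrays 238, 160 and 101 and the WKY arrays 96.2, 86.7 and 55.6. Every ACTH and every SHR array lay above every WKY array, although SHR replicate 3 was only just above WKY replicate 1. The log2 change was 1.09 ± 0.31 in ACTH and 1.02 ± 0.31 in SHR against WKY, 2.13-fold and 2.02-fold. Neither passed the test over all probesets (unadjusted p = 0.0050 and 0.0077, adjusted p = 0.156 and 0.141). ACTH and SHR differed by 0.08, with a 95% interval of -0.61 to 0.76, and by 0.71 when the ACTH arrays were set against the SHR array of the same scan day. With the GAPDH ratio as a covariate both changes against WKY were smaller, at 0.67 in ACTH and 0.62 in SHR. With scan day as a fixed block the change in ACTH was 1.89, which rests on WKY replicate 2 alone and is linked through SHR arrays.

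Hsd11b1 is also made by macrophages and fibroblasts, and markers of both cell types differed between the groups. Summed over 9 macrophage probesets, the signal ranged from 1590.5 to 2408 in ACTH, 1033 to 1605 in SHR and 457 to 1340 in WKY. The 7 kept had a median log2 change of 1.55 in ACTH against WKY, against 0.02 over all probesets. There 7 of 7 had an unadjusted limma p under 0.05, and 6 did not overlap (20.4% of all). In SHR against WKY the median was 0.86, and all overlapped. Only the complement gene C1qc passed the test in ACTH against WKY (log2 change 2.34 ± 0.47, adjusted p = 0.0464), a call that held in only 1 of 9 cases with an array left out. Cd14 rose in ACTH against SHR (0.83 ± 0.18, adjusted p = 0.0375; held in 3 of 9). The pan-leukocyte marker Ptprc stayed at or below 20.0 on every array. The 8 fibroblast probesets, which include the type I collagens, summed to 11457 to 14723 in ACTH, 17557 to 20193 in SHR and 18827 to 21182 in WKY. Not all of its genes ran that way: in ACTH against WKY the changes of Dcn and Pdgfra were 0.50 and 0.53, with no overlap for Dcn, while neither passed the test. The collagen Col3a1 fell by 0.92 ± 0.17 in ACTH against SHR (adjusted p = 0.0184), except without ACTH replicate 2 or 3. The part of either cell type in the Hsd11b1 values was not tested.

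Hsd11b2, the inactivating enzyme, was near the filter. Its signals were 60.3, 52.9 and 46.4 in ACTH, 46.3, 41.6 and 52.2 in SHR and 6.88, 32.8 and 52.6 in WKY. WKY replicate 1 was far below the other arrays and the groups overlapped. The change of 1.21 ± 0.57 in ACTH against WKY (adjusted p = 0.426) had a 95% interval of -0.05 to 2.47. Without that array it was 0.35 in ACTH and 0.16 in SHR.

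**Figure D1:**
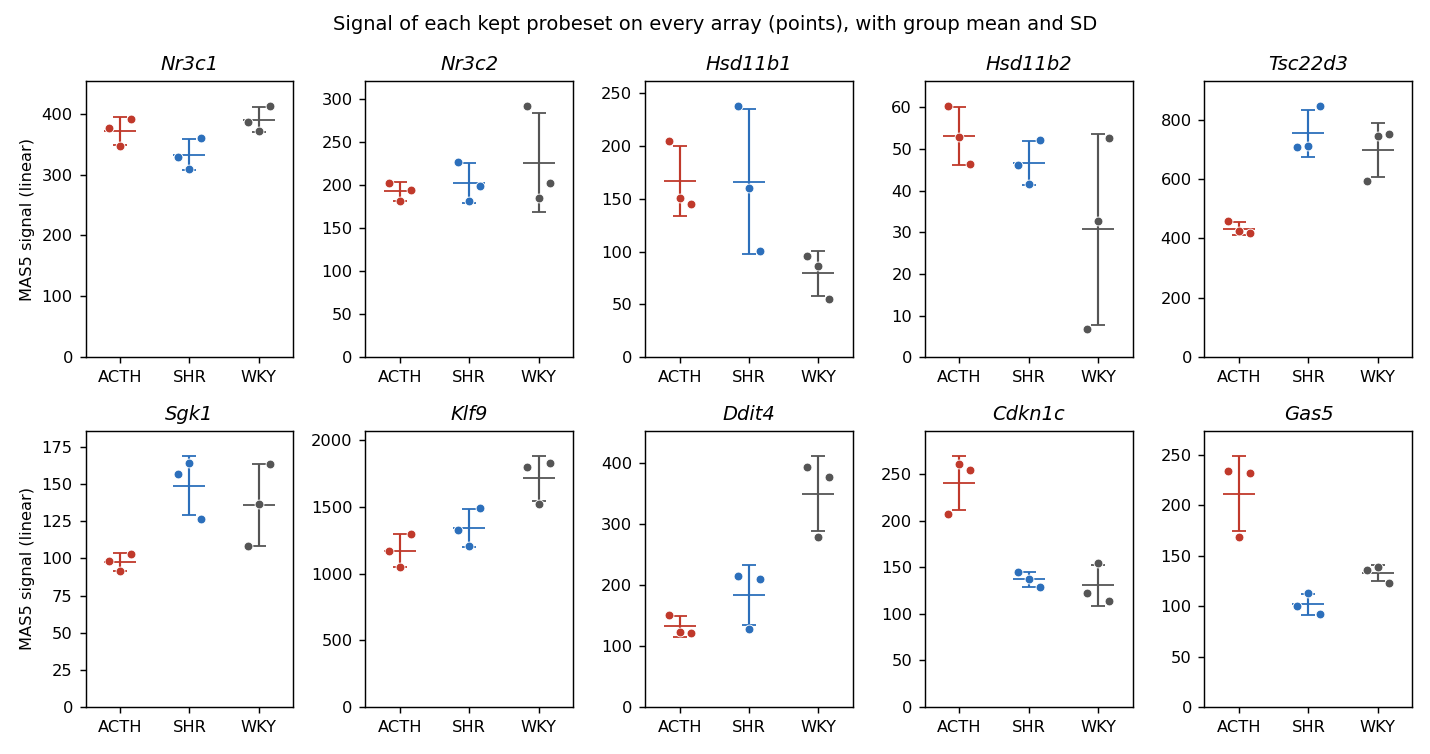
MAS5 signal of the 10 tested probesets (linear axes from 0, one panel per gene), with a point for each array, a horizontal bar for the group mean and error bars of 1 SD (n = 3 per group). Ddit4 and Klf9 lie lower in ACTH and SHR than in WKY, Tsc22d3 and Sgk1 lower in ACTH than in the other groups, and Cdkn1c and Gas5 higher in ACTH.

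Among the hormone-responsive genes, 4 that glucocorticoids are known to induce had lower signals in arteries of ACTH-treated rats. Ddit4, which encodes an inhibitor of the growth kinase complex mTORC1 and also answers to low oxygen and stress, gave 151, 123 and 121 in ACTH, 215, 127 and 209 in SHR and 393, 279 and 377 in WKY. All ACTH arrays and all SHR arrays were below all WKY arrays, and the ACTH and SHR arrays overlapped. Ddit4 fell by 1.40 ± 0.22 on the log2 scale in ACTH against WKY, 0.379-fold (adjusted p = 0.0177). In SHR against WKY the change was -0.95 ± 0.22, 0.517-fold (adjusted p = 0.0633). The call in ACTH was lost with the GAPDH ratio as a covariate, where the change was -1.39 ± 0.34 (adjusted p = 0.264). In that fit the change was nearly the same with a larger SE, and 0 of 9125 probesets passed. The call was also lost without ACTH replicate 2 or 3 or WKY replicate 1 or 3, with adjusted p from 0.0716 to 0.0787. Over 22 alternatives the change ran from -1.55 to -1.30 and the adjusted p from 0.00348 to 0.440.

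Tsc22d3 encodes the glucocorticoid-induced leucine zipper protein, a mediator of the anti-inflammatory action of these hormones. Its signals were 458, 425 and 417 in ACTH, 708, 711 and 846 in SHR and 593, 745 and 753 in WKY. The 3 ACTH arrays were the lowest of the 9. Tsc22d3 fell by 0.80 ± 0.15 on the log2 scale in ACTH against SHR, 0.576-fold (adjusted p = 0.0177). Against WKY the value was -0.68 ± 0.15, 0.625-fold, and missed the threshold (adjusted p = 0.0649), although 5 of 22 alternatives called it. Against the SHR array of the same scan day it was -0.97. The call against SHR was lost when any ACTH array or SHR replicate 2 or 3 was left out (adjusted p from 0.0520 to 0.0834). The SHR and WKY arrays overlapped, at 0.12 ± 0.15.

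Sgk1, a kinase that raises sodium transport and is induced through both receptors, gave 98.2, 91.5 and 103 in ACTH, 157, 164 and 126 in SHR and 108, 137 and 164 in WKY. Again the ACTH arrays were the lowest 3, by a small margin to WKY replicate 1. The changes of -0.46 ± 0.18 against WKY and -0.60 ± 0.18 against SHR did not pass the test (adjusted p = 0.313 and 0.104). Against WKY the value was -0.74 with the GAPDH ratio as a covariate and -0.14 with scan day as a fixed block, and against the SHR array of the same scan day it was -0.37. With WKY replicate 1 left out, the SHR change of 0.14 ± 0.18 against WKY became -0.013.

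Klf9, a zinc-finger transcription factor that glucocorticoids induce in many tissues, gave 1167, 1049 and 1296 in ACTH, 1330, 1210 and 1493 in SHR and 1797, 1522 and 1827 in WKY. Both hypertensive groups lay below WKY without overlap, and they overlapped each other. The changes against WKY were -0.55 ± 0.15 in ACTH and -0.35 ± 0.15 in SHR (adjusted p = 0.135 and 0.278). The other probesets of Klf9 stayed between 14.5 and 23.9 and between 2.40 and 5.72 and were not tested.

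Cdkn1c and Gas5, which both slow the cell cycle, gave their highest signals in ACTH. Cdkn1c, a cyclin-dependent kinase inhibitor that dexamethasone induces in human cells, gave 208, 261 and 254 in ACTH, 145, 137 and 129 in SHR and 123, 155 and 114 in WKY. The ACTH arrays lay above the other 6, which were mixed. Cdkn1c rose by 0.89 ± 0.16 against WKY, 1.85-fold (adjusted p = 0.0284), and by 0.81 ± 0.16 against SHR, 1.75-fold (adjusted p = 0.0232). The call against WKY was lost with the GAPDH ratio as a covariate (0.95, adjusted p = 0.277) and with scan day as a fixed block (0.75, adjusted p = 0.532). Leaving out any ACTH array, or WKY replicate 1 or 3, also ended it (adjusted p from 0.0665 to 0.120), and the call against SHR ended without ACTH replicate 2 or 3 or SHR replicate 2 or 3 (0.0752 to 0.103). SHR and WKY differed by 0.08, with a 95% interval of -0.27 to 0.44.

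Gas5 is a non-coding RNA that accumulates when growth stops, and its human transcript can bind the glucocorticoid receptor in place of DNA. It gave 234, 169 and 232 in ACTH, 100, 113 and 92.3 in SHR and 136, 138 and 123 in WKY. The 3 groups did not overlap, with ACTH highest and SHR lowest. The change of 1.04 ± 0.16 in ACTH against SHR, 2.06-fold, passed the test (adjusted p = 0.00827) and was 1.18 against the SHR array of the same scan day. It was the only call among the 10 genes that held with each of the 9 arrays left out in turn. Against WKY, the changes of 0.66 ± 0.16 in ACTH and -0.38 ± 0.16 in SHR missed the threshold (adjusted p = 0.107 and 0.280).

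**Figure D2:**
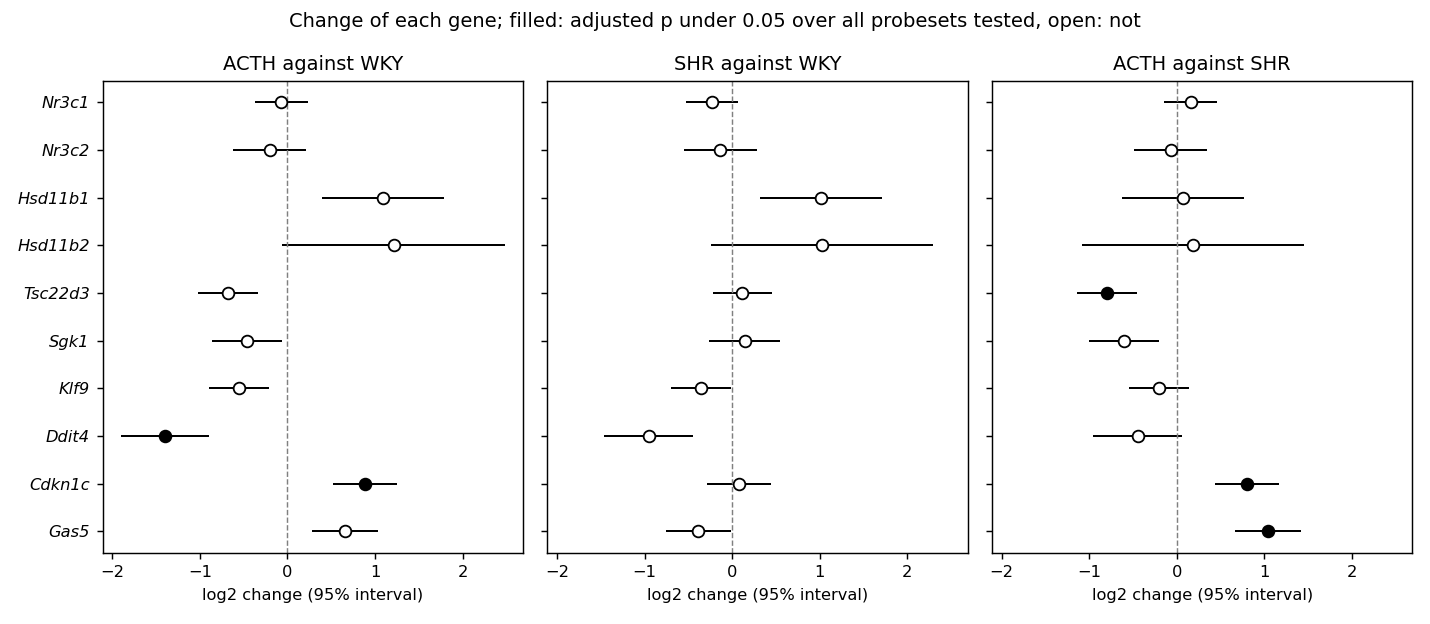
Log2 change of each gene (x axis, points) with its 95% interval (lines) in ACTH against WKY, SHR against WKY and ACTH against SHR. Filled points had an adjusted p under 0.05 over all probesets tested: Ddit4 and Cdkn1c in the left panel, none in the middle and Tsc22d3, Cdkn1c and Gas5 in the right.

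By comparison, 2 of the 10 genes passed the test in ACTH against WKY, 1 in each direction, where 1.21% of all probesets tested did. The arrays of the groups did not overlap for 7 of the 10, against 20.4% of all, with Hsd11b1, Cdkn1c and Gas5 higher in ACTH and Tsc22d3, Sgk1, Klf9 and Ddit4 lower. The thresholds of the methods, which carry no adjustment for the number of probesets, passed 5 of the 10 (Tsc22d3, Ddit4, Klf9, Cdkn1c and Gas5), against 4.12% of all. The median absolute log2 change was 0.67 over the 10 and 0.17 over all probesets tested. The 10 genes were chosen with earlier results of these data known. The paper had already listed some of them as changed on these arrays. It gave Klf9 and Ddit4 (there Rtp801) as lower in both models than in WKY. Gas5 was given as lower in SHR and higher in ACTH, and the paper reported the same directions for Gas5 by quantitative PCR. The shares for the 10 genes, here and in the comparisons below, are therefore a description and not a test. Beside the macrophage and fibroblast sums given above, the sum of the 5 endothelial markers was 1968 to 2248 in ACTH, 1857 to 2105 in SHR and 2487 to 2972 in WKY. Of these Cldn5 and Vwf lay lower in ACTH and SHR than in WKY without overlap and Kdr higher, and the list's median change was 0.01 in ACTH and 0.27 in SHR. Vwf fell by 1.28 ± 0.21 in SHR against WKY (adjusted p = 0.0118), though not without WKY replicate 3. Among other cell markers, the adipocyte gene Cfd rose by 2.36 ± 0.45 in ACTH against WKY (adjusted p = 0.0366, held in 1 of 9 cases with an array left out). Its WKY signals were 27.2, 111 and 37.0. Of the other adipocyte markers tested, Lpl lay lower in ACTH without overlap (-0.54) and Fabp4 overlapped (0.25). The adipocyte sum was 640 to 814 in ACTH and 621 to 804 in WKY. In SHR against WKY the muscle gene Des fell by 1.45 ± 0.22 (adjusted p = 0.00717). Acta1, the 1 kept probeset of 5 on the skeletal muscle list, rose by 0.92 ± 0.15 there (adjusted p = 0.0107). The others on that list stayed at or below 44.2 on every array. Acta1 also lay higher in ACTH than in WKY without overlap (0.58, adjusted p = 0.123). In ACTH against SHR Des rose by 1.25 ± 0.22 (adjusted p = 0.0138), except without ACTH replicate 1 or 2. The 7 smooth muscle markers, Des included, had a median change of 0.01 in SHR against WKY. Tagln and Myl9 lay higher there without overlap (0.23 and 0.24), while Cnn1 and Acta2 were lower with overlap (-0.19 and -0.47). The smooth muscle sum was 23972 to 26413 in SHR and 21959 to 25283 in WKY. With the GAPDH ratio as a covariate the calls of C1qc, Cfd, Vwf, Acta1 and Cd14, and of Des in SHR, were lost. The part of cell makeup in the changes of these genes was not tested.

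In SHR against WKY, limma called 0 of 10, where 2.05% of all probesets were called. At an unadjusted p under 0.05 there were 4, Hsd11b1, Klf9, Ddit4 and Gas5, and the methods' unadjusted thresholds passed Ddit4 alone, against 5.49% of all. The arrays did not overlap for 5 of 10, against 19.4% of all. Hsd11b1 was the only higher one, and Nr3c1, Klf9, Ddit4 and Gas5 were lower.

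In ACTH against SHR, 3 of 10 were called (3.4% of all probesets), Cdkn1c and Gas5 higher and Tsc22d3 lower. The arrays did not overlap for these and for Sgk1, 4 of 10, against 24.9% of all. The methods' thresholds passed the same 3 genes, against 6.6% of all. Any pair of these comparisons shares the arrays of 1 group, so they are not independent of one another. With scan day as a fixed block, a fit with 3 residual degrees of freedom, none of the calls held, and of all probesets 0 passed in ACTH against WKY, 25 in SHR against WKY and 35 in ACTH against SHR. With the GAPDH ratio as a covariate all 3 calls in ACTH against SHR held.

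**Figure D3:**
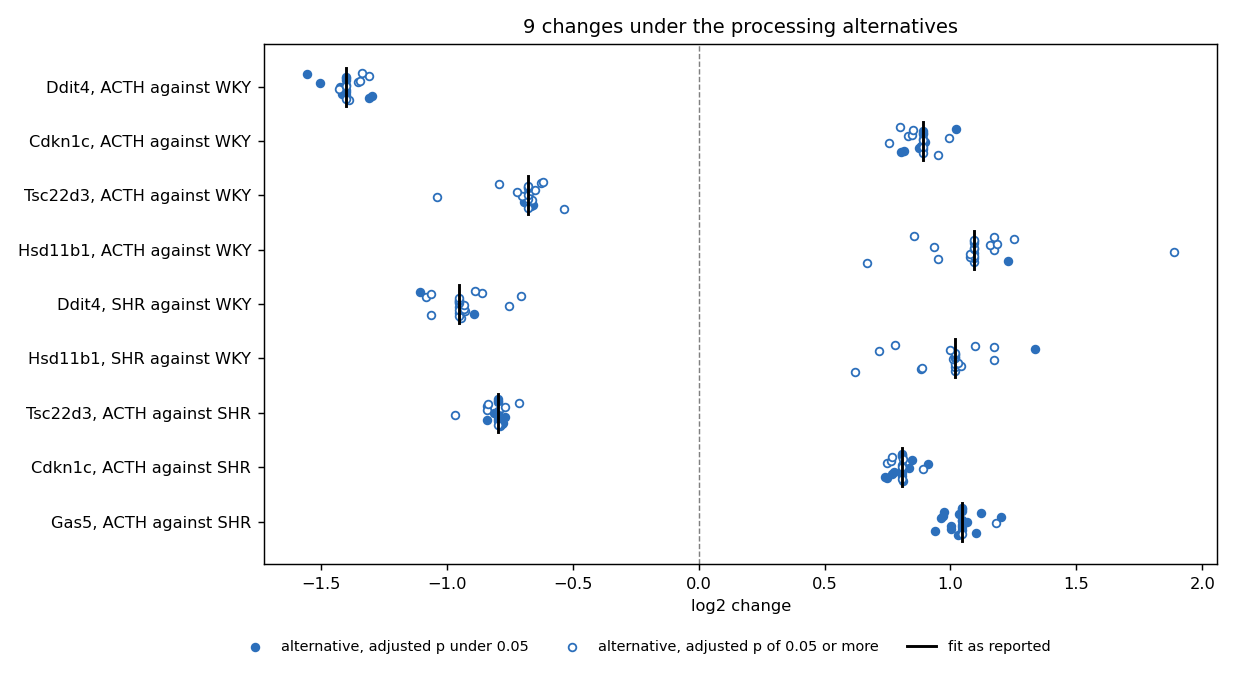
Log2 change (x axis) of 9 gene and comparison pairs as reported (black bars) and under 22 alternatives each (points, filled where the adjusted p was under 0.05). No point crosses 0. Gas5 in ACTH against SHR was called in 20 of 22 alternatives, and Ddit4 in ACTH against WKY in 14 of 22.

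Receptors bound to DNA recognise a palindrome of 15 bases, built from the half-site AGAACA and its reverse complement TGTTCT with 3 bases between them. RefSeq start sites (build GRCr8) were available for 6 of the 10 genes, Nr3c1, Tsc22d3, Sgk1, Klf9, Ddit4 and Gas5, with 11 start sites in all. The array files name no genome build, and the coordinates here are those of RefSeq. In the 250 bases before each start, 0 of the 11 windows held the half-site on either strand, where 17.5% of 33469 rat windows of that length did, and 0 held the palindrome, which 4 of all windows hold. For the listed genes known to be induced by glucocorticoids, 3 of 30 windows held a half-site (Fam107a, Lpin1 and Trim63). An absent match says only that these letters do not occur in the window, and receptor sites often lie much farther from a gene.

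The windows of 3 genes that passed a test are printed to show the sequence next to the start, for Tsc22d3 that of the start nearest the end of the gene. They are 5′ to 3′ on the gene's strand, end at the base before the start, and carry in capitals 3 short motifs on either strand: CCAAT or ATTGG (in 34.0% of all windows), TATAAA or TTTATA (12.9%), and TGACG or CGTCA, the half-site of the cAMP response element (18.2%). The Tsc22d3 window is chrX:109010035-109010284, minus strand, the Ddit4 window chr20:28437038-28437287, minus strand, and the Gas5 window chr13:75836713-75836962, plus strand.
Tsc22d3: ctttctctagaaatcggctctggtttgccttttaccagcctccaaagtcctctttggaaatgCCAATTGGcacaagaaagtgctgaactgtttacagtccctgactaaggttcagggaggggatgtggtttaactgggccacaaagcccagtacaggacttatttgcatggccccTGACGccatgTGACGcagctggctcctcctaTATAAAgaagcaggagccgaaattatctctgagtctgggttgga
Ddit4: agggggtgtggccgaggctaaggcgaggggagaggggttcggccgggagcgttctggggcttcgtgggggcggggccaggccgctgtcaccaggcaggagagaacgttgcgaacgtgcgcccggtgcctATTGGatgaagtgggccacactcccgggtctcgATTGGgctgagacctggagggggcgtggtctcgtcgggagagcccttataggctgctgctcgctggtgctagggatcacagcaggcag
Gas5: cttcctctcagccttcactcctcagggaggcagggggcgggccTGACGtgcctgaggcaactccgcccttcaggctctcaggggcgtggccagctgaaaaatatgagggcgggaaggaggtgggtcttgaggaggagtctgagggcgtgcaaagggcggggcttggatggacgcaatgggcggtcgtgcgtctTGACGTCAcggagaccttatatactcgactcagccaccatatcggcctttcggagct
At the printed start Tsc22d3 had CCAAT and ATTGG, overlapping, 188 and 185 bases before it, TGACG at 75 and 65 bases and TATAAA at 44 bases. The windows of its other starts held none of these motifs. Ddit4, which fell in ACTH, had only ATTGG, 121 and 88 bases before the start. In Gas5, which was highest in ACTH, TGACG and CGTCA overlapped at 57 and 54 bases to form the full cAMP response element, and a further TGACG stood at 207 bases. Whether these motifs are used in the artery was not tested.

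For each of the 4 genes called in some comparison, the 3 other probesets with the most similar log2 signal over the 9 arrays were found. These correlations describe 9 arrays in 3 groups, and they carry no test. Tsc22d3 was most like Rarres2, the adipokine chemerin (r = 0.96), Pola2 and the metallothionein Mt3, and Ddit4 most like Fstl1 (0.98), the sorting receptor Sorl1 and the protease Htra1. Cdkn1c was most like F3, tissue factor (0.97), the cell cycle inhibitor Cdkn2c and PCOLCE2. Gas5 was most like Xpo7 (0.95), Sptssa and Il1r2, the decoy receptor of interleukin-1. Among the 10 genes themselves, Klf9 and Ddit4 had an r of 0.93 and Sgk1 and Tsc22d3 of 0.83, while Gas5 and Tsc22d3 had -0.89.

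Lists of related genes showed which neighbours of these genes moved. Of the partners and hormone supply of the receptors (chaperones, coactivators, corepressors and the NADPH-generating enzyme H6pd), 9 probesets of 7 genes were tested. With limma 0 of 9 passed in any comparison, as with the unmoderated test, and an unadjusted p under 0.05 was found for 3 in ACTH against WKY, 5 in SHR against WKY and 1 in ACTH against SHR. The median log2 change was 0.09 in ACTH and 0.24 in SHR against WKY, against 0.02 and -0.0048 over all probesets.

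Other genes that glucocorticoids are known to induce moved in both directions. Of 27 probesets tested (24 genes of 36 listed), 2 rose and 2 fell in ACTH against WKY, 14.8% against 1.21% of all probesets, with a median change of -0.11. Angptl4, an inhibitor of lipoprotein lipase, rose 1.94 ± 0.27 on the log2 scale (adjusted p = 0.00865) and the transcription factor Nfil3 rose 1.80 ± 0.32 (adjusted p = 0.0281). Nfil3 gave 137, 143 and 129 in ACTH and 65.1, 43.3 and 21.2 in WKY. With 43.3 and 21.2 below 44, the size of its rise is uncertain. The clock gene Per1 also fell (adjusted p = 0.0349), with signals of 8.20, 8.46 and 46.2 in ACTH and 113, 142 and 86.4 in WKY. Since 2 of its ACTH signals were far below 44, no size is given for its change. A probeset of Rgs2, which shortens the signalling of G proteins, fell by 0.95 ± 0.14 (adjusted p = 0.0126). Angptl4 kept its call with each array left out. Nfil3 and Rgs2 lost theirs without any one of the ACTH arrays and Rgs2 also without WKY replicate 3, and Per1 lost its call in 7 of the 9 cases. With the GAPDH ratio as a covariate limma called none of the 7 listed probesets that had passed in ACTH against WKY, collagens included, and 0 of all 9125 probesets passed.

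In ACTH against SHR, Angptl4 and the phosphatase Dusp1 rose (1.40 ± 0.27 and 1.43 ± 0.20, adjusted p = 0.0209 and 0.00459) and both Rgs2 probesets fell, the 2 calls in each direction making 4 of 27, or 14.8% against 3.4% of all. Dusp1 gave 1099, 1214 and 1651 in ACTH and 471, 500 and 479 in SHR, and kept its call with each array left out. Angptl4 lost its call against SHR without ACTH replicate 1 or 2 or SHR replicate 1 or 3, and both Rgs2 probesets without any one of the ACTH arrays. One Rgs2 call was also lost without any one of the SHR arrays, and the other without SHR replicate 2. In SHR against WKY the 1 call of 27 (3.7% against 2.05% of all) was the cell cycle inhibitor Cdkn1a, which fell by 1.25 ± 0.20 (adjusted p = 0.00995) and passed with each array left out. Fkbp5, a receptor co-chaperone widely used as a marker of glucocorticoid action and named here after its values were seen, gave 149, 162 and 146 in ACTH, 136, 279 and 260 in SHR and 125, 338 and 368 in WKY. Its WKY replicate 1 was lowest of all, and the change of -0.72 ± 0.39 in ACTH against WKY did not pass the test (adjusted p = 0.520).

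Genes that glucocorticoids are known to repress were mostly dim, with 7 of 20 probesets tested. Of these 3 fell and 0 rose in ACTH against WKY, 42.9% against 1.21% of all, and all 3 were type I collagen probesets. The 3 genes other than collagens had higher mean signals in ACTH, and none passed the test (adjusted p from 0.277 to 0.638). The changes were 0.42 for the adhesion molecule Vcam1 and 0.23 for Icam1, both without overlap. Nos2 overlapped, with 52.4, 44.8 and 82.3 in ACTH and 5.58, 52.5 and 22.8 in WKY. Since its WKY signals of 5.58 and 22.8 were far below 44, no size is given for its change. The log2 changes of the 2 Col1a1 probesets were -1.91 ± 0.26 and -2.23 ± 0.38 (adjusted p = 0.00865 and 0.0233), and that of 1 Col1a2 probeset was -1.08 ± 0.15 (adjusted p = 0.00865). The second Col1a1 call was lost without ACTH replicate 2 or any WKY array, and the other collagen calls against WKY held with each array left out. In ACTH against SHR the other Col1a2 probeset fell by 0.75 ± 0.17 (adjusted p = 0.0393) and 1 of Col1a1 fell by 1.19 ± 0.26 (adjusted p = 0.0372), and both calls were lost when any ACTH or SHR array was left out. These collagens are also on the fibroblast list, so the lower fibroblast sum in ACTH is partly the same values. Limma called 0 of 7 in SHR against WKY, with 3 at an unadjusted p under 0.05 and 0 by the unmoderated test.

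Genes of mineralocorticoid action and sodium transport included 13 tested probesets of 9 genes. In ACTH against WKY limma called 0 of 13, with 3 at an unadjusted p under 0.05 and 0 by the unmoderated test. Atp1b1, the beta subunit of the sodium pump, was the gene called in the other comparisons, with 1 of 13 probesets in SHR against WKY (7.69% against 2.05% of all) and 2 in ACTH against SHR (15.4% against 3.4%). It gave 45.9, 32.3 and 59.4 in ACTH, 136, 129 and 104 in SHR and 46.6, 41.4 and 69.1 in WKY at one of its probesets. There it rose by 1.26 ± 0.25 in SHR against WKY (adjusted p = 0.0314) and fell by 1.46 ± 0.25 in ACTH against SHR (adjusted p = 0.0118). With 32.3 in ACTH and 41.4 in WKY below 44, the sizes of these changes are uncertain. The other, brighter probeset fell by 1.46 ± 0.22 in ACTH against SHR (adjusted p = 0.00761). Its change of 0.93 ± 0.22 in SHR against WKY, without overlap, missed the threshold (adjusted p = 0.0690). The call in SHR against WKY was lost in 5 of the 9 cases with an array left out, and that at the first probeset against SHR only without SHR replicate 2.

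Of 16 tested probesets of relatives of the 10 genes, limma called 0 in ACTH against WKY and 0 in ACTH against SHR (6 and 5 at an unadjusted p under 0.05, 0 and 0 by the unmoderated test). In SHR against WKY 2 fell (12.5% against 2.05% of all), Cdkn1a, as above, and Klf6, a relative of Klf9, by 0.75 ± 0.14 at 1 of its probesets (adjusted p = 0.0235). Klf6 gave 362, 368 and 312 in SHR there and 624, 586 and 544 in WKY, and lost its call without SHR replicate 2 or 3 or WKY replicate 1 or 2. The other Klf6 probeset changed by -0.25 ± 0.21 in SHR against WKY, with overlap (adjusted p = 0.603). In ACTH against WKY the Klf6 probesets went opposite ways, at -0.36 and 0.37, and neither passed the test. With the GAPDH ratio as a covariate none of Cdkn1a, Klf6 and Atp1b1 passed in SHR against WKY (adjusted p from 0.161 to 0.352), while the 8 listed probesets called in ACTH against SHR all passed.

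**Figure D4:**
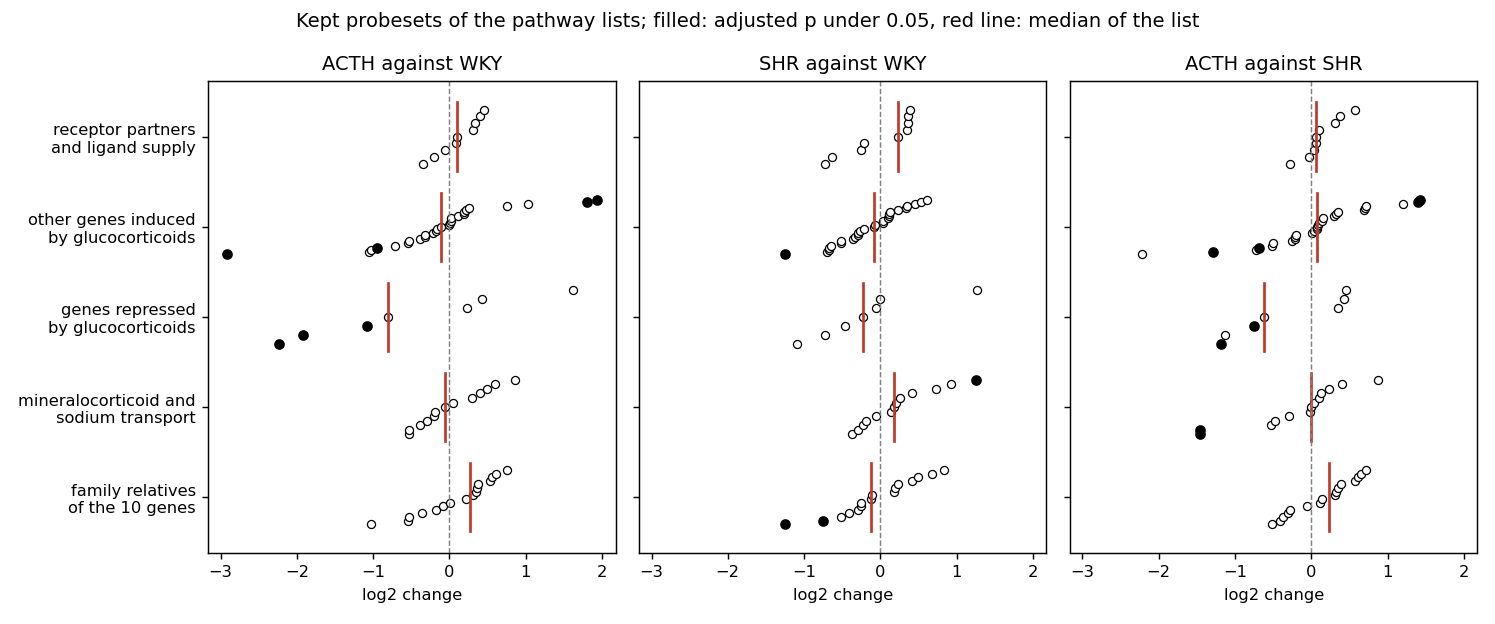
Log2 change (x axis) of every tested probeset of the 5 gene lists (rows) in the 3 comparisons (panels). Filled points had an adjusted p under 0.05, and red lines mark the median of a list, which for the repressed genes, where 4 of 7 probesets are collagens, was -0.81 in ACTH against WKY and -0.62 in ACTH against SHR.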

How the data were processed

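RNA was amplified in a two-cycle reaction primed with oligo(dT) and hybridised to RAE230A arrays. Per the labels and methods, the authors computed each probeset's intensity with MAS5, on a linear scale and with arrays brought to a common mean of 150. Detection calls were not used here. Control probesets (57) were left out, and a probeset was kept when its third-highest signal over the arrays was at least 44 (9125 probesets). The number of arrays limits the precision.

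Symbols came from the platform annotation through RefSeq gene identifiers, and 7745 kept probesets had 1 symbol. Log2 signals of all 9 arrays were fitted to the 3 groups with limma 3.58.1 in R 4.3.3 (lmFit, contrasts and eBayes without trend, 6 residual and 4.42 prior degrees of freedom). Two-sided p-values were corrected for all kept probesets (Benjamini-Hochberg, threshold 0.05), and errors of changes are SE. Arrays are pools of different rats as far as the labels tell, and the p-values measure the spread between pools. The fit was tested on simulated data.

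Alternatives were the filter, the normalization, the offset, the variance model, array weights, GAPDH ratio, scan day, replicate number, the samples fitted, the methods' unmoderated test and each array left out; for the listed genes and cell markers they were added after seeing the data. The genes and lists were chosen with earlier results of these data known. Every probeset of the 10 genes was named, and of each list, cell markers included, those called in some comparison.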

Additional observations from a re-analysis of the deposited data

How the results depend on the processing

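Of the 10 genes, 2 passed in ACTH against WKY, 0 in SHR against WKY and 3 in ACTH against SHR. Without the filter on low signals these counts were 0, 0 and 0, with 15866 probesets tested, of which 0, 72 and 52 passed in all. With scan day as a fixed block they were 0, 0 and 0 as well, on fewer degrees of freedom, where 0, 25 and 35 of all probesets passed. In ACTH against WKY the count was 0 with the GAPDH ratio as a covariate (0 of all probesets), 0 with the methods' unmoderated test after Benjamini-Hochberg adjustment (5 at the methods' own unadjusted thresholds), 1 with only the groups compared, 4 with a variance trend and 5 with array weights. In SHR against WKY it was 1 with a mean signal of at least 100, with 16 added to the signal and with a variance trend. Leaving out 1 array gave 0 to 2 calls in ACTH against WKY, 0 to 1 in SHR against WKY (Hsd11b1 without SHR replicate 3, Ddit4 without WKY replicate 2) and 1 to 3 in ACTH against SHR. The cause was not tested.

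Of the listed probesets 7 passed in ACTH against WKY, 3 in SHR against WKY and 8 in ACTH against SHR. Without the filter 0, 0 and 0 passed, with the GAPDH ratio 0, 0 and 10, with scan day as a fixed block 0, 0 and 1, and with the unmoderated test 0, 1 and 2. In ACTH against WKY a variance trend gave 11 and only the groups compared 4, and in ACTH against SHR array weights gave 15. Leaving out 1 array gave 3 to 7, 1 to 4 and 3 to 9.

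Replicate numbers did not pair the arrays (correlations of deviations from -0.0657 to 0.131). With the replicate block the counts for the 10 genes were 3, 2 and 3, adding Hsd11b1 in both comparisons with WKY and Ddit4 in SHR.

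The 12 changes of sign were all in values that had not passed. With scan day as a fixed block Nr3c2 was 0.093 in ACTH against WKY, and in SHR against WKY Nr3c2 was 0.14, Tsc22d3 -0.071 and Cdkn1c -0.14. Sgk1 in SHR against WKY was -0.12 with the GAPDH ratio, and Nr3c2 in ACTH against SHR 0.027 with array weights. With 1 array left out, in SHR against WKY Sgk1 ran from -0.013 to 0.29, Nr3c2 from -0.27 to 0.062 and Cdkn1c from -0.0088 to 0.21, and in ACTH against SHR Nr3c2 ran from -0.14 to 0.018 and Hsd11b1 from -0.24 to 0.38.

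With 3 arrays a group, each a pool, small changes would be missed, and the dim probesets of Nr3c1 and Klf9 and the signals of Hsd11b2 near the filter carry little information.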
